A study of Rattus norvegicus with 8 samples.

Results

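The proteasome genes of the rat neurohypophysis were followed from 35 to 125 days of age. They were taken as every gene in the expression table whose symbol is Psma, Psmb, Psmc, Psmd, Psme, Psmf or Psmg followed by a number, and whose value reached 10 in at least 4 of the 8 libraries. Of the 33294 genes listed, 48 had such a symbol and 46 of these passed the filter, among 17919 genes that passed it in all. The neurohypophysis, or neural lobe of the pituitary, holds the terminals of the vasopressin and oxytocin neurons, glial pituicytes and a dense capillary bed. RNA was sequenced from male Sprague Dawley rats of 35 days, which the labels call the control, and of 125 days, with 4 libraries at each age. No allele, drug or diet was labelled, and animals of both ages were perfused with buffered saline under isoflurane before the lobe was frozen. The labels do not say whether each library came from 1 animal or several, so the p-values measure the spread between these libraries, which may in part be technical.

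The proteasome is the protease that degrades proteins tagged with ubiquitin. Its 20S core is a barrel of outer alpha rings and inner beta rings, and only 3 of the beta subunits cut peptide bonds: Psmb6 (caspase-like), Psmb7 (trypsin-like) and Psmb5 (chymotrypsin-like). A 19S cap of ATPase (Psmc) and non-ATPase (Psmd) subunits recognises, unfolds and feeds in substrates. Interferon gamma induces the replacement subunits Psmb9, Psmb10 and Psmb8, which take the places of Psmb6, Psmb7 and Psmb5 in newly built immunoproteasomes, and the paired cap subunits Psme1 and Psme2. These forms are known for supplying peptides to class I antigen presentation, and in brain tissue they are best known from microglia.

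The 5 inducible genes were set against the constitutive genes, so their promoters are shown first, with that of Psmb5 as the constitutive counterpart of Psmb8. Each is the RefSeq sequence from 250 bases before to 50 bases after the annotated start on the assembly GRCr8, read 5′ to 3′ on the gene's strand. In the first 5 sequences the capitals mark GAAA, any 2 bases and GAAA again, a repeat to which interferon regulatory factors can bind, on either strand. In the Psmb5 sequence they mark TGACNNNGC, the core of the antioxidant response element. The Psmb8 window is chr20:4656982-4657281 (minus strand), that of Psmb9 chr20:4668750-4669049 (plus) and that of Psmb10 chr19:50743243-50743542 (minus). Those of Psme1, Psme2 and Psmb5 are chr15:33038721-33039020 (plus), chr15:33052702-33053001 (minus) and chr15:32047330-32047629 (minus).
Psmb8: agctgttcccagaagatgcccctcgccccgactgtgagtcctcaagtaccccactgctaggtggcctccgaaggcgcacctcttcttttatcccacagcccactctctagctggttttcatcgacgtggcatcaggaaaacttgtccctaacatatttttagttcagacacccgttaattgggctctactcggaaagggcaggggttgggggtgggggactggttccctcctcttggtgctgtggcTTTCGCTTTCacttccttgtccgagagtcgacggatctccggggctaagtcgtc
Psmb9: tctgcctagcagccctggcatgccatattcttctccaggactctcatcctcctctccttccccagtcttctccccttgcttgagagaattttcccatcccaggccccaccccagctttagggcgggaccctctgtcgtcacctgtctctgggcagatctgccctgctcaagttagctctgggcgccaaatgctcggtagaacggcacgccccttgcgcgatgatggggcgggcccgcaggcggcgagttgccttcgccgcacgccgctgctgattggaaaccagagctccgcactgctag
Psmb10: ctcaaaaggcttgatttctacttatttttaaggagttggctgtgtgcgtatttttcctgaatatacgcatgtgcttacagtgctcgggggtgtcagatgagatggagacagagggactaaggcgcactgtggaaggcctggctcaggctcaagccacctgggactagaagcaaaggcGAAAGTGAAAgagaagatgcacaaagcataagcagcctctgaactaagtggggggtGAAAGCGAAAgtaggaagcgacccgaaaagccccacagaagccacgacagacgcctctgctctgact
Psme1: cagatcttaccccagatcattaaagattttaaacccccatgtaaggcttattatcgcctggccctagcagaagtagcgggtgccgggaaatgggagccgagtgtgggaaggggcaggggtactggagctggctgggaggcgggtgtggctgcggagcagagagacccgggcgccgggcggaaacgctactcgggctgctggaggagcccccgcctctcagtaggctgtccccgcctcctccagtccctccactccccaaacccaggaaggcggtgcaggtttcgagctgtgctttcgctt
Psme2: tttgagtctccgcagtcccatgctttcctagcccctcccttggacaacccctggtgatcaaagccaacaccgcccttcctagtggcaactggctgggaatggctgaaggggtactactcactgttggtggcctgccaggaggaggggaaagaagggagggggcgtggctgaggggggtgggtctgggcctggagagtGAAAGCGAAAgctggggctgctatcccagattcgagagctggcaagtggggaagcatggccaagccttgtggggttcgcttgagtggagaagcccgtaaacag
Psmb5: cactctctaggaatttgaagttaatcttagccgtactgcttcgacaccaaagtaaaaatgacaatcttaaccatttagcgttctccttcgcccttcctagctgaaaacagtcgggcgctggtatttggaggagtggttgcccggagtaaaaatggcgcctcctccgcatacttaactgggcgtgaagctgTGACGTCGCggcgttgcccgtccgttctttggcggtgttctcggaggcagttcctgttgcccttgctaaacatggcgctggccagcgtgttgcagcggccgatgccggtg

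This GAAA repeat stood in 3 of the 5 inducible promoters and in none of the 3 of Psmb5, Psmb6 and Psmb7, against 3.92% of all 33469 rat promoters of this length. With the first transcribed base counted as 1, it lay at -4 to 6 in Psmb8, on the strand opposite to the one shown. Psmb10 held it on the strand shown at -73 to -64 and again at -17 to -8, and Psme2 at -53 to -44. The windows of Psmb9 and Psme1 held no match, which holds only as far as the windows reach. The neighbouring gene Tap1, described below, held the repeat at -121 to -112 from its own start, on the strand opposite to that of Tap1. That place is between the starts of Tap1 and Psmb9, beyond the end of the Psmb9 window. The Psme1 window ends in tttcgctt, which could begin a match on the strand opposite to the one shown, and the bases after it were not searched. Of the 46 genes, 42 had a promoter in the table, and the other matches among them were in Psma4, Psmb3, Psmd7 and Psmg4, which made 7 of 42. TGACNNNGC was in 8 of 42 (Psma3, Psmb2, Psmb5, Psmb6, Psmd1, Psmd3, Psmd9 and Psme4), against 12.1% of all, and in none of the 5 inducible windows. In Psmb5 it lay at -60 to -52. Both motifs were searched on both strands and chosen after the expression values were seen. A match shows only that these letters are there.

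On the same assembly Psmb8 and Psmb9 lie in the class II region of the major histocompatibility complex, in the order RT1-DOb, Tap2, Psmb8, Tap1, Psmb9, RT1-DMb. Tap1, a subunit of the transporter that carries peptides into the endoplasmic reticulum, and Psmb9 are read in opposite directions from starts 457 bases apart. Psme1 and Psme2 lie with only Emc9 between them. No source used here says whether strand was used in counting, so at such places reads from overlapping genes may be mixed.

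Recovered reads ran from 28429133 to 58696254 per library. The first principal component of all genes (53.4% of variance) separated the ages, and on the second (21.3%) 35-day replicate 3 lay at -59.7 and the other 35-day libraries at 21.8 to 29.3. That library held the highest level of all 8 for 9 of 9 anterior lobe markers, with a summed level of 1393790 depth-normalized counts. The sum was 24252 to 227871 in the other 35-day libraries and 6498 to 50112 at 125 days. Markers of the neurohypophysis were present in every library, with summed levels of 43828 to 56926 at 35 days and 28450 to 42229 at 125 days for 8 pituicyte genes. For Avp and Oxt together the sums were 4132 to 6329 and 4335 to 8814. Intermediate lobe markers were also present, at 2016420 to 3764260 and 3615990 to 5345610. Most of that sum was Pomc, at 1957150 to 3724080 and 3555300 to 5272640. The mean log2(value + 1) over the 5 intermediate lobe genes overlapped between the ages, at 14.9 to 15.31 and 15.27 to 15.8. No marker searched was listed at 0 in every library. Because 35-day replicate 3 stands apart, the results for the proteasome genes are given with and without it.

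With all 8 libraries, none of the 46 proteasome genes passed the test for a change with age. The test was limma on log2(value + 1) with Benjamini-Hochberg adjustment over all 17919 genes, a call being an adjusted p below 0.05. By that rule 17.7% of all genes were called (8.85% higher and 8.87% lower at 125 days). Among the 46 proteasome genes, 4 had an unadjusted limma p below 0.05, against 5666 of all 17919 genes, and the lowest adjusted p in limma was 0.104. On the recovered reads edgeR and DESeq2 also called 0 of the 46, against 3170 and 4196 of all genes. The median log2 change, 125 minus 35 days, was -0.13 over the 46 genes and 0.0072 over all genes, with 9 genes above 0 and 37 below. In bulk tissue, fewer cells of a type and less RNA per cell cannot be told apart.

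Without 35-day replicate 3, 8 of the 46 were called. The 7 that rose were all 5 inducible genes (Psmb8, Psmb9, Psmb10, Psme1 and Psme2), the inhibitor Psmf1 and the assembly chaperone Psmg4, and the 1 that fell was the activator Psme4. Of all genes, 15.9% were called higher and 14.8% lower in the same fit, so 7 of 46 is near the share over all genes, while the 5 inducible genes were all called. None of the 31 constitutive subunits of the 20S core and 19S cap was called in either fit, though 4 were with library weights, as given below. Without that library their changes ran from -0.26 to 0.21, with a median of -0.012 and a lowest adjusted p of 0.0521 in limma (Psmd3). In that fit 3 of the 31 had an unadjusted limma p below 0.05, against 7544 of all 17919 genes. With all 8 libraries they ran from -0.31 to 0.13, with a median of -0.15. The 5 inducible genes had a median of 0.30 without that library and 0.14 with it. Over all 46 genes the median without it was 0.0072, with 23 genes above 0 and 23 below.

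35-day replicate 3 was the highest of the 8 libraries in 41 of the 46 genes, against 29% of all genes tested. Its level was a median of 1.52 times the mean of the other 35-day libraries, from 0.812 times in Psme4 to 2.23 times in Psmg3, and the median over all genes was 0.987. The 5 genes in which another library was highest were Psma3, Psmd3, Psme3, Psme4 and Psmf1. 35-day replicate 3 was thus highest for all 3 constitutive catalytic subunits, 6 of 6 ATPases and 4 of 4 chaperones of core assembly. The anterior lobe markers named above were highest in the same library. Beyond the covariate fit given with the inducible genes, their part in the proteasome levels was not tested.

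**Figure D1:**
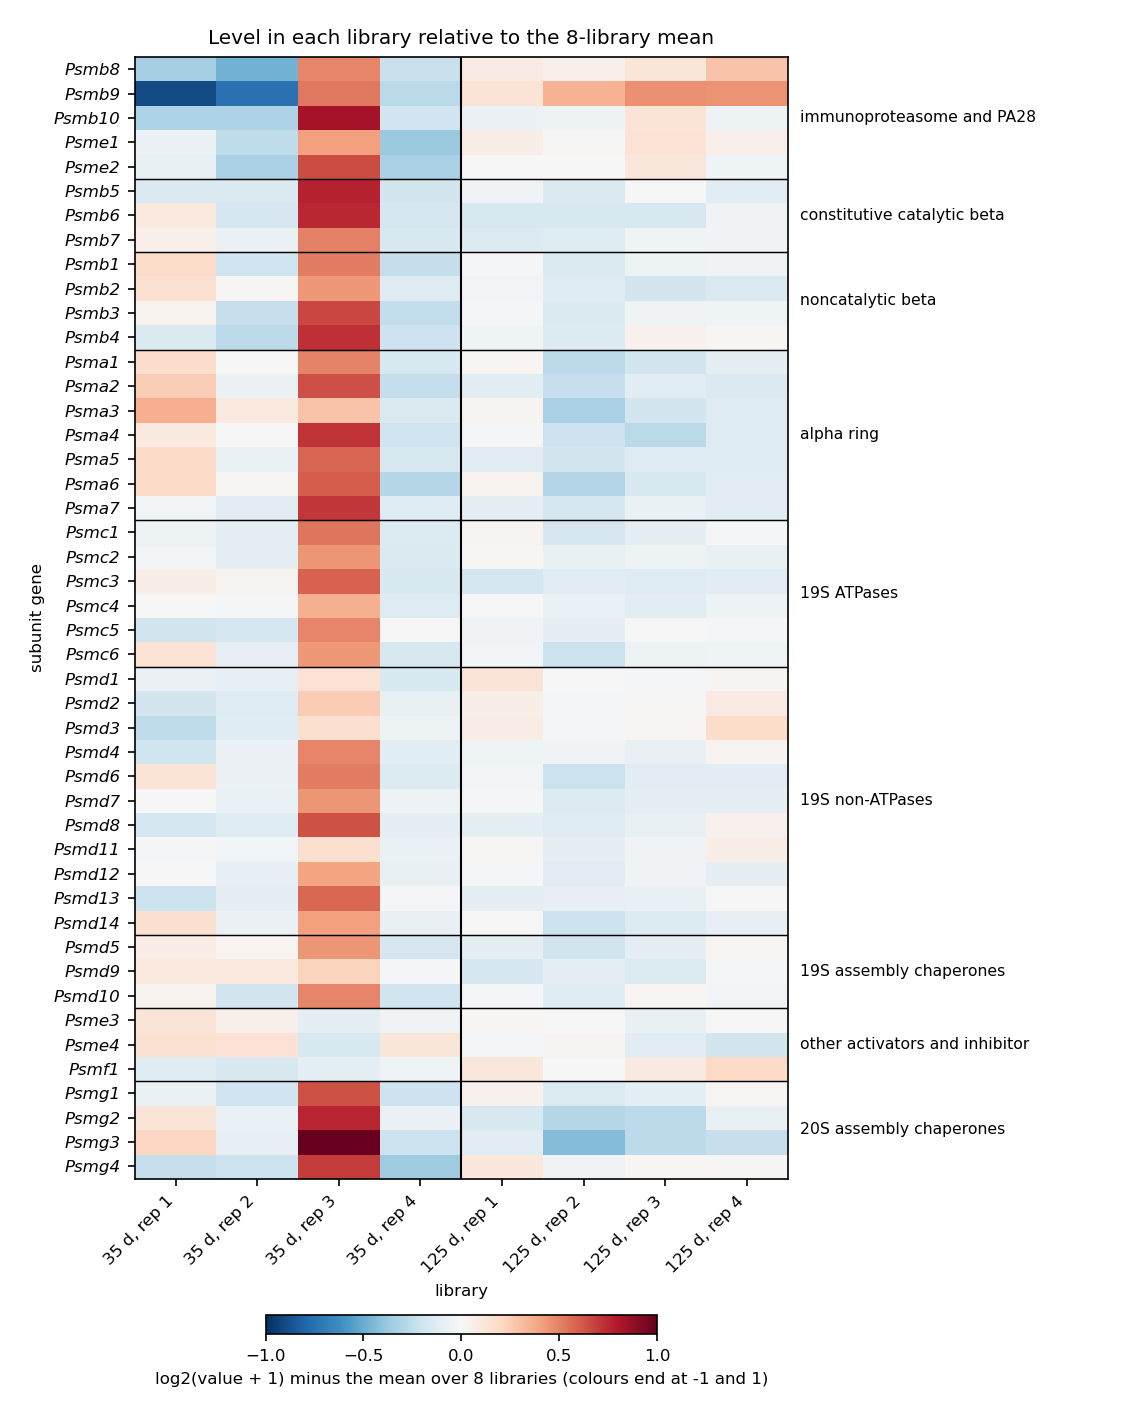
Heat map of the 46 proteasome genes (rows, grouped by role) in the 8 libraries (columns). Colour is log2(value + 1) minus the mean of that gene over the 8 libraries, red for higher and blue for lower, and colours end at -1 and 1. The column of 35-day replicate 3 is red in most rows, and the deepest blue cells are those of Psmb9 in 35-day replicates 1 and 2.

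Away from that library, the median proteasome gene varied less within an age than the median of all genes. The median coefficient of variation over the 46 genes was 4.66% among the 125-day libraries, where it was 9.74% over all genes. Among the 35-day libraries it was 23.8% with replicate 3 and 7.05% without it, against 18.1% and 9.54% over all genes. All genes include many of low value, and no set of like level was used. The 5 inducible genes had medians of 6.84% at 125 days and 10.1% at 35 days without replicate 3. For Psmb9 alone these were 9.99% and 23.4%.

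Psmb9, the inducible caspase-site replacement, had the largest difference between the ages of the 46 genes. It was at 329, 365, 879 and 506 depth-normalized counts in 35-day replicates 1 to 4 and at 670.4, 778, 838 and 833 in 125-day replicates 1 to 4. All 125-day libraries lay above 35-day replicates 1, 2 and 4, but 35-day replicate 3 lay above all of them. Over all libraries the level was 519.6 ± 252 depth-normalized counts at 35 days and 779.9 ± 77.9 at 125 days (SD, n = 4), a log2 change of 0.69 (SE 0.27, limma adjusted p = 0.104). Without 35-day replicate 3 the change was 0.98 (SE 0.15, limma adjusted p = 0.00117), which is 1.97-fold on the fitted scale.

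Psmb8, the inducible replacement at the chymotrypsin-like site, was at 420.0, 379, 741 and 452 depth-normalized counts in 35-day replicates 1 to 4 and at 559.7, 545, 572 and 644 in 125-day replicates 1 to 4. As for Psmb9, the 125-day libraries lay between the 3 lower 35-day libraries and 35-day replicate 3. The log2 change was 0.27 (SE 0.19, limma adjusted p = 0.374) with all libraries and 0.48 (SE 0.10, adjusted p = 0.00547) without that one. Psmb10, the trypsin-site replacement, was at 711, 709, 1566 and 771 depth-normalized counts in 35-day replicates 1 to 4 and at 843, 846, 966 and 849 in 125-day replicates 1 to 4. Its 125-day libraries lay above 3 of the 35-day libraries and far below replicate 3, which was 2.14 times the mean of the others. Its log2 change was -0.014 (SE 0.23, limma adjusted p = 0.976) with all libraries and 0.26 (SE 0.079, adjusted p = 0.0320) without replicate 3.

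Psme1, the alpha subunit of the interferon-inducible cap, was at 5299, 4619, 7340.1 and 4263 depth-normalized counts in 35-day replicates 1 to 4 and at 5764, 5574, 6087 and 5719.7 in 125-day replicates 1 to 4. The ages overlapped through replicate 3 alone. The log2 change was 0.14 (SE 0.15, limma adjusted p = 0.587), and 0.30 (SE 0.078, adjusted p = 0.0184) without that library. Its partner Psme2 was at 2909, 2454, 4831 and 2455 depth-normalized counts in 35-day replicates 1 to 4 and at 3079.9, 3061, 3311 and 2975 in 125-day replicates 1 to 4. Here too the other 3 libraries of 35 days lay below every library of 125 days, by little: the highest of the 3 was 2909 and the lowest at 125 days 2975. The log2 change was 0.033 (SE 0.19, limma adjusted p = 0.930), and 0.26 (SE 0.076, adjusted p = 0.0292) without replicate 3. The order of the 5 changes was the same in both fits for the first 3, Psmb9, Psmb8 and Psme1, and Psmb10 and Psme2 were within their standard errors of each other.

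**Figure D2:**
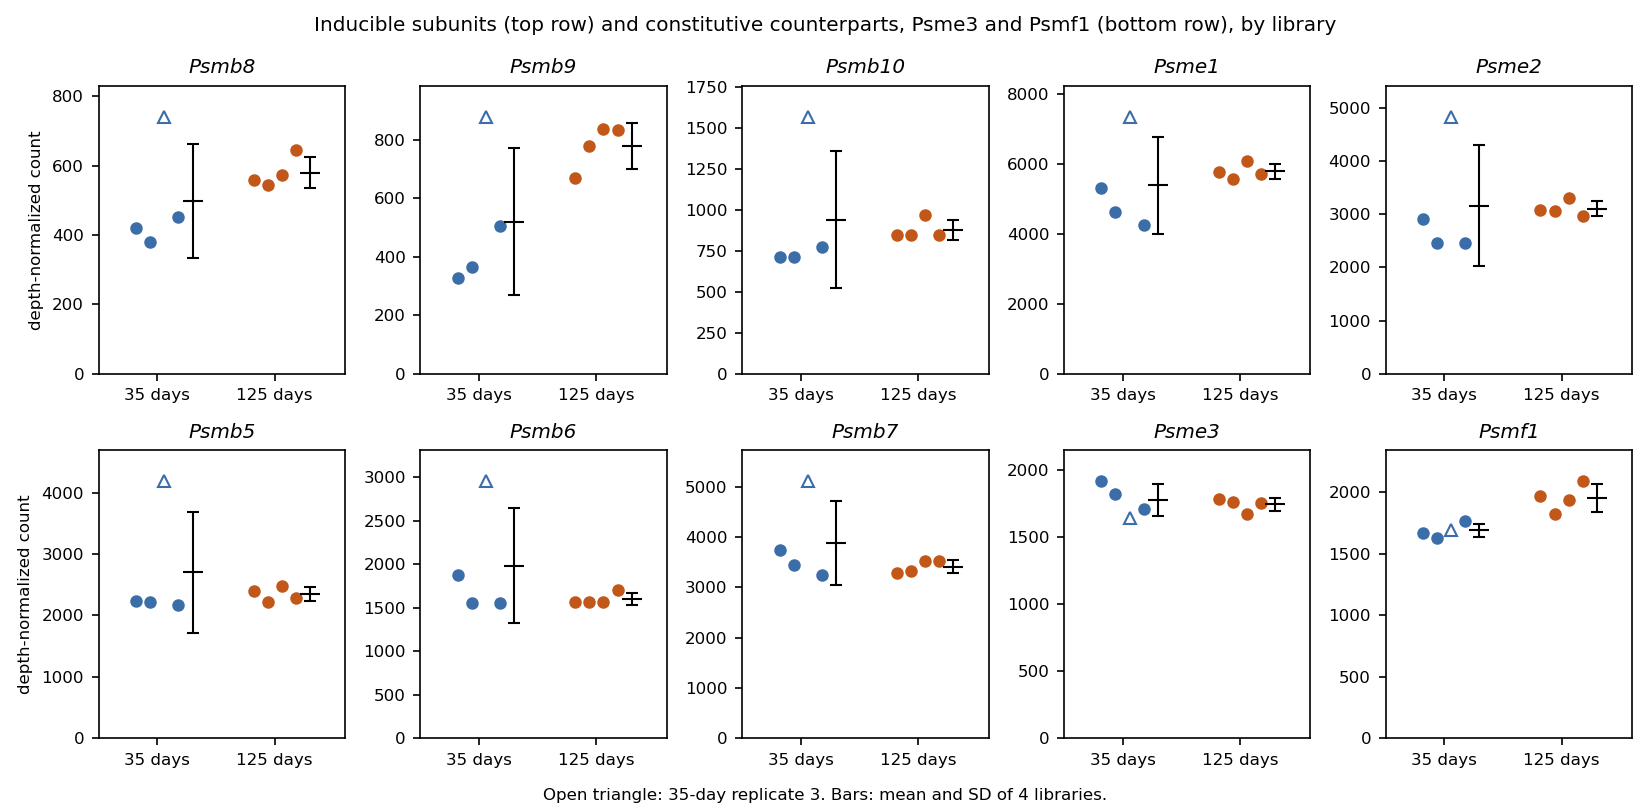
Depth-normalized counts (vertical axes, each from 0) of the 5 inducible subunits in the top row and of Psmb5, Psmb6, Psmb7, Psme3 and Psmf1 in the bottom row, by age. Points are libraries, the open triangle is 35-day replicate 3, and bars are the mean and SD of 4 libraries. In the top row the 125-day points lie above the filled 35-day points and below the triangle, and in Psmf1 the ages do not overlap.

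A fit with the anterior lobe marker level of each library as a covariate, chosen after seeing the data, gave all 5 inducible genes a positive change. That level, a mean log2(value + 1), was itself tied to age, at 9.32 to 14.3 in 35-day libraries and 7.58 to 9.69 in 125-day libraries. Age and the marker level therefore cannot be fully told apart in that fit. Psmb9 was called, with a log2 change of 1.28 (SE 0.26, limma adjusted p = 0.0117), and it was the only proteasome gene called in that fit, in which 14.8% of all genes were (7.37% higher and 7.46% lower). Psmb8 had 0.63 (limma adjusted p = 0.0734) and Psmb10 0.48 (adjusted p = 0.195), and Psme1 and Psme2 had 0.36 and 0.35. A positive change was not particular to the inducible genes in that fit. The median over all 46 moved to 0.069, against 0.00075 over all genes. Psmg4 had 0.47 and the constitutive Psmb4 0.35, while Psma3 had -0.27. With weights that let limma count a variable library less, 13 of the 46 were called, 10 higher and 3 lower, against 44% of all genes (22.2% higher and 21.9% lower). The 8 genes called without 35-day replicate 3 were all among the 13. The other 5 were Psmd9 (lower) and 4 constitutive core or cap subunits. Of these Psmb4 (0.21, limma adjusted p = 0.0406), Psmd2 (0.17, 0.0319) and Psmd3 (0.21, 0.0184) were higher and Psma3 (-0.24, 0.0400) was lower.

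None of the 3 constitutive catalytic subunits was called in either fit. Psmb5 was at 2229, 2224, 4185 and 2168 depth-normalized counts in 35-day replicates 1 to 4 and at 2397, 2221, 2469.9 and 2276 in 125-day replicates 1 to 4. Apart from replicate 3 the ages overlapped, and the log2 change was -0.15 (SE 0.19, limma adjusted p = 0.651) with that library and 0.084 (adjusted p = 0.322) without it. Psmb6 was at 1871, 1557, 2953 and 1553 depth-normalized counts in 35-day replicates 1 to 4 and at 1564, 1559, 1562 and 1701 in 125-day replicates 1 to 4, with a log2 change of -0.26 (limma adjusted p = 0.374) and, without replicate 3, -0.052 (0.657). Psmb7 was at 3729.9, 3437, 5107 and 3248 depth-normalized counts in 35-day replicates 1 to 4 and at 3278, 3317, 3525 and 3512 in 125-day replicates 1 to 4. Its log2 change was -0.16 (limma adjusted p = 0.443) and -0.025 (0.798) without replicate 3. Apart from that library, the ages overlapped in all 3.

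Because each inducible subunit takes the place of 1 constitutive subunit, the log2 ratio of the pair was also taken within each library, which removes what moves both genes alike. The transcripts differ in length, so the ratio is not a share of molecules and only its change between libraries was read. Psme3, a nuclear activator of the same family that interferon does not induce, served as the partner of Psme1 and Psme2. The 5 ratios were compared between ages by two-sided exact permutation tests of 4 against 4 libraries, which have 70 arrangements and a smallest possible p of 0.0286.

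The Psmb9 to Psmb6 ratio was 0.176, 0.235, 0.298 and 0.326 in 35-day replicates 1 to 4 and 0.429, 0.499, 0.537 and 0.490 in 125-day replicates 1 to 4. All 125-day libraries were higher than all 35-day libraries, replicate 3 included. The mean log2 ratio was higher at 125 days by 0.95, which is 1.94-fold (exact permutation p = 0.0286, 0.0714 adjusted over the 5 ratios). The Psmb8 to Psmb5 ratio was 0.189, 0.171, 0.177 and 0.209 at 35 days and 0.234, 0.246, 0.232 and 0.283 at 125 days. The ages again did not overlap, and 35-day replicate 3 lay inside the range of its own age. The difference was 1.33-fold (log2 0.42, exact permutation p = 0.0286, adjusted 0.0714). Both p-values are the smallest that this design allows and did not pass 0.05 after adjustment.

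The other 3 ratios overlapped between the ages. Psmb10 to Psmb7 was 0.191, 0.206, 0.307 and 0.238 at 35 days and 0.257, 0.255, 0.274 and 0.242 at 125 days (log2 difference 0.15, exact permutation p = 0.371, adjusted 0.607). Psme1 to Psme3 was 2.76, 2.54, 4.46 and 2.49, then 3.24, 3.16, 3.64 and 3.26 (log2 difference 0.16, exact p = 0.486, adjusted 0.607). Psme2 to Psme3 was 1.52, 1.35, 2.94 and 1.43, then 1.73, 1.73, 1.98 and 1.69 (log2 difference 0.056, exact p = 0.914, adjusted 0.914). In each of these 35-day replicate 3 was the highest of the 8, and in that library Psme3 was the lowest of the 8, at 0.906 times the mean of the other 35-day libraries. Without it, the ages did not overlap for any of the 5, with log2 differences of 1.03 (Psmb9), 0.39 (Psmb8), 0.29 (Psmb10), 0.35 (Psme1) and 0.31 (Psme2). Each then had an exact permutation p of 0.0286, raw and adjusted, the smallest possible with 35 arrangements. The adjusted value equals the raw one only because all 5 ratios reached that smallest p. The Psme1 and Psme2 ratios share the partner Psme3 and so are not separate tests.

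**Figure D3:**
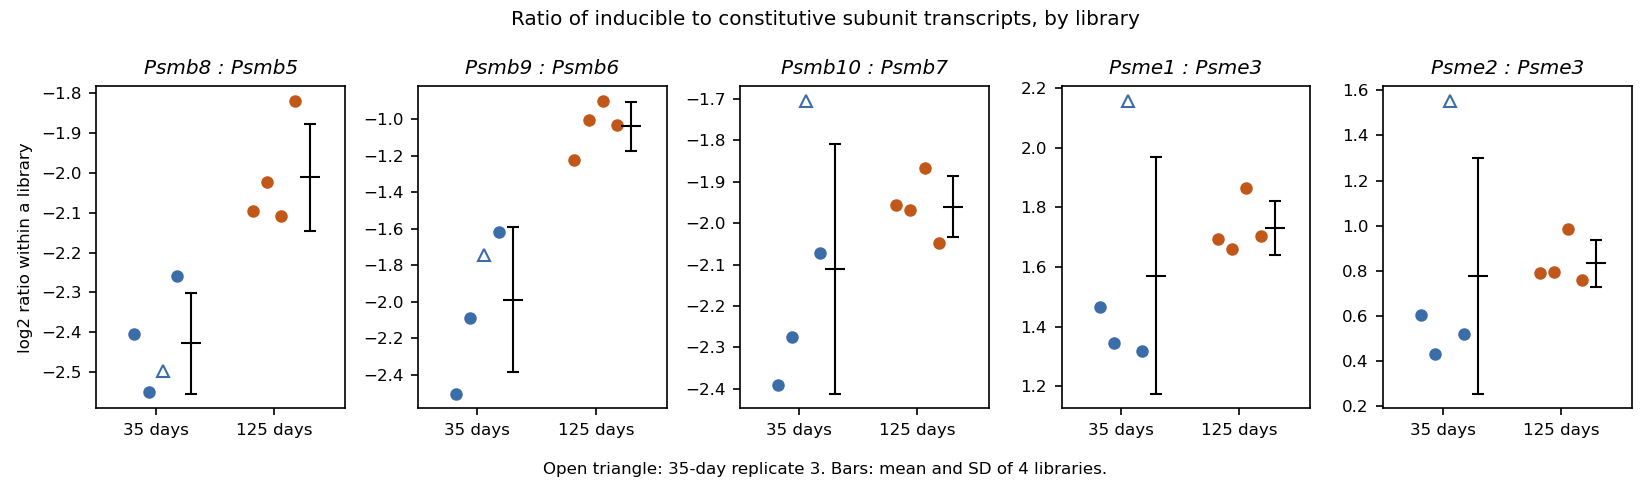
Log2 ratio of an inducible to a constitutive subunit within each library (vertical axes, which differ between panels) at 35 and 125 days. Points are libraries, the open triangle is 35-day replicate 3, and bars are the mean and SD of 4 libraries. In the panels of Psmb8 to Psmb5 and Psmb9 to Psmb6 the triangle lies with the other 35-day points, below all 125-day points, and in the other 3 it lies above them.

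In the rest of the beta rings, the structural subunits Psmb1, Psmb2, Psmb3 and Psmb4 had log2 changes of -0.13, -0.24, -0.12 and -0.057, and 0.02, -0.13, 0.088 and 0.18 without 35-day replicate 3. Psmb2 had the lowest adjusted p of the 4 and was at 2522, 2286, 3066 and 2069 depth-normalized counts in 35-day replicates 1 to 4 and at 2225, 2087, 1999.7 and 2045 in 125-day replicates 1 to 4. The ages overlapped (limma adjusted p = 0.213, and 0.230 without replicate 3).

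All 7 alpha subunits, which form the outer rings and the gate of the core, had changes below 0 in both fits, and none was called. The log2 changes of Psma1 to Psma7 in order were -0.25, -0.30, -0.30, -0.31, -0.28, -0.26 and -0.22, with a median of -0.28. Without 35-day replicate 3 they were -0.13, -0.13, -0.26, -0.12, -0.13, -0.11 and -0.022, with a median of -0.13. Psma3 was at 5545, 4603, 5259 and 3897 depth-normalized counts in 35-day replicates 1 to 4 and at 4393, 3445, 3785 and 3929 in 125-day replicates 1 to 4. It was the alpha subunit in which 35-day replicate 3 stood out least, with the highest value in replicate 1, and the ages overlapped (SE 0.13, limma adjusted p = 0.129). It was called lower without 35-day replicate 4, when libraries were scaled by their totals, and with library weights (log2 change -0.24, limma adjusted p = 0.0400).

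Of the ATPases, which form the ring that unfolds substrates, Psmc1 to Psmc6 had log2 changes of -0.13, -0.088, -0.26, -0.11, -0.068 and -0.17. Without 35-day replicate 3 these were 0.028, 0.043, -0.11, -0.0061, 0.084 and -0.049. Psmc3 was at 3662, 3558, 5259.9 and 3155 depth-normalized counts in 35-day replicates 1 to 4 and at 3091, 3251, 3192 and 3241 in 125-day replicates 1 to 4. Its 125-day values spanned a narrow range that overlapped the 35-day range at its lower end (limma adjusted p = 0.241). As a group the ATPases had the smallest spread at 125 days, with a median coefficient of variation of 2.97%.

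Among the 11 non-ATPase subunits of the cap, the scaffold subunits Psmd1 and Psmd2 and the lid subunit Psmd3 were the only ones with a change above 0 in the fit of all libraries, at 0.072, 0.069 and 0.13. In the fit without 35-day replicate 3 these were 0.13, 0.16 and 0.21, and the ages no longer overlapped in any of them. Psmd3 was at 2808, 3080.5, 3748 and 3235 depth-normalized counts in 35-day replicates 1 to 4 and at 3522, 3326, 3402 and 3808 in 125-day replicates 1 to 4. Its limma adjusted p was 0.416 with all libraries and 0.0521 without replicate 3. The ubiquitin receptor Psmd4 had a log2 change of -0.062, and Psmd6, Psmd7, Psmd8, Psmd11, Psmd12 and Psmd13 had -0.23, -0.17, -0.13, -0.024, -0.12 and -0.12. Without that library the same 7 were at 0.09, -0.10, -0.046, 0.064, 0.026, -0.012 and 0.049. Psmd14, the enzyme that removes the ubiquitin chain from a substrate before it is degraded, was at 1876, 1617, 2239 and 1596 depth-normalized counts in 35-day replicates 1 to 4 and at 1676, 1452, 1533 and 1587 in 125-day replicates 1 to 4. Its log2 change was -0.22 (limma adjusted p = 0.245), and -0.12 without replicate 3, with overlapping ages.

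**Figure D4:**
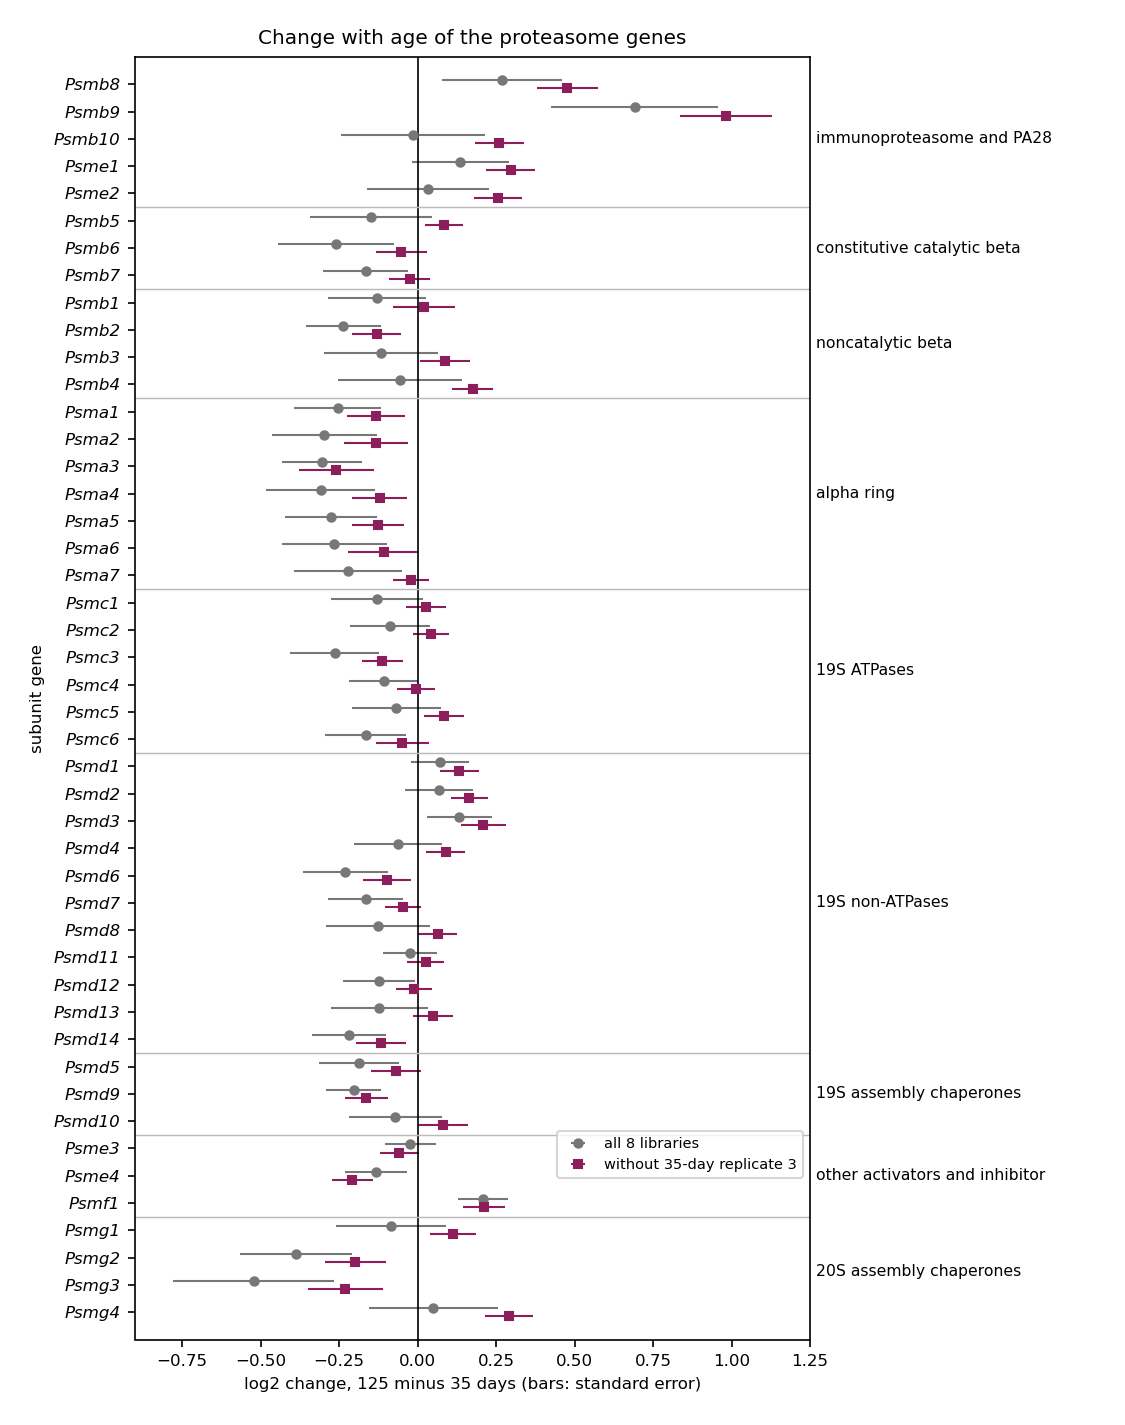
Log2 change from 35 to 125 days (horizontal axis, 125 minus 35) of each of the 46 proteasome genes, by role. Grey circles are the limma fit of all 8 libraries, purple squares the fit without 35-day replicate 3, and bars the standard error. Without that library Psmb9 (0.98) and Psmb8 (0.48) lie furthest to the right, and the constitutive core and cap subunits lie between -0.26 and 0.21.

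The remaining genes act on the finished particle or help to build it. Psmf1, which can block access to the core, was at 1668, 1629, 1694 and 1761 depth-normalized counts in 35-day replicates 1 to 4 and at 1966, 1819, 1935 and 2088 in 125-day replicates 1 to 4. All 125-day libraries were above all 35-day libraries, and 35-day replicate 3 was close to the others. With all libraries the log2 change was 0.21 (SE 0.08, limma adjusted p = 0.104), and without replicate 3 it was 0.21 (SE 0.067, adjusted p = 0.0384). It was the only gene of the 46 whose ages did not overlap in the upward direction with all 8 libraries, a state that 13.4% of all genes were in. Downward, Psmd9 and Psmg2 were the only ones, against 11.5% of all genes, and in either direction 3 of the 46 against 24.9%. Leaving out replicate 3, the numbers were 11 upward, against 20.3% of all genes, and 3 downward, against 17.9%.

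Psme4, an activator that binds the core and is best known from the testis and the nucleus, was at 4299.6, 4275, 3455 and 4199 depth-normalized counts in 35-day replicates 1 to 4 and at 3826, 3939, 3593 and 3407 in 125-day replicates 1 to 4. It was the gene in which 35-day replicate 3 lay furthest below the other 35-day libraries, and those 3 were above every 125-day library. The log2 change was -0.13 (SE 0.10, limma adjusted p = 0.396), and -0.21 (SE 0.065, adjusted p = 0.0354) without replicate 3. Psme3 was at 1916, 1819.8, 1644 and 1711 depth-normalized counts in 35-day replicates 1 to 4 and at 1781, 1764, 1671 and 1756 in 125-day replicates 1 to 4. Its ages overlapped and its log2 change was -0.023 (limma adjusted p = 0.884), and -0.058 without replicate 3.

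Of the chaperones that build the core, Psmg1 pairs with Psmg2 and Psmg3 with Psmg4. Psmg4 was at 599, 605, 1141 and 550.3 depth-normalized counts in 35-day replicates 1 to 4 and at 756, 684, 714 and 708 in 125-day replicates 1 to 4. Apart from 35-day replicate 3, all 125-day libraries were higher. The log2 change was 0.05 (SE 0.21, limma adjusted p = 0.898), and 0.29 (SE 0.077, adjusted p = 0.0180) without that library. Its pair Psmg3 had -0.52 (limma adjusted p = 0.195), and -0.23 (adjusted p = 0.171) without replicate 3. Psmg2 was at 503, 438, 780.2 and 441 depth-normalized counts in 35-day replicates 1 to 4 and at 411, 375, 383 and 436 in 125-day replicates 1 to 4. Its ages did not overlap, by a narrow gap, and its log2 change was -0.39 (SE 0.18, limma adjusted p = 0.169) and -0.20 without replicate 3. Psmg1 had -0.085 and 0.11 in these fits.

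The chaperones that build the base of the cap, Psmd5, Psmd9 and Psmd10, had log2 changes of -0.19, -0.20 and -0.071, and -0.069, -0.16 and 0.08 without 35-day replicate 3. Psmd9 was at 1071, 1071, 1168 and 996 depth-normalized counts in 35-day replicates 1 to 4 and at 893, 939, 913 and 992 in 125-day replicates 1 to 4. Every 35-day library was above every 125-day library, and the difference did not pass the test (SE 0.088, limma adjusted p = 0.144, and 0.104 without replicate 3).

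Both genes that failed the filter are specific to other tissues. Psma8, an alpha subunit of the testis, was at 13.4, 5.17, 13.1 and 9.60 depth-normalized counts at 35 days and 3.05, 6.84, 5.04 and 6.84 at 125 days, and reached 10 in 2 libraries. Psmb11, a catalytic subunit of the thymus, was at 2.43, 2.07, 5.45 and 5.64, then 3.05, 11.7, 7.56 and 8.80, and reached 10 in 1. Of the 46 genes inside the filter, the lowest value in any library was 329, that of Psmb9 in 35-day replicate 1.

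Outside the symbol rule, 20 genes that assist the proteasome could be tested, among them Pomp, the chaperone that matures the core, Adrm1, a ubiquitin receptor of the cap, and Nfe2l1, the transcription factor that raises proteasome genes when the protease is blocked. With all libraries 1 rose and none fell in limma, against 8.85% and 8.87% of all genes. It was Zfand2a, a stress-induced protein that binds the cap, at 1105, 1109, 1026 and 998 depth-normalized counts in 35-day replicates 1 to 4 and at 1369, 1187, 1328 and 1345 in 125-day replicates 1 to 4, with the ages apart (log2 change 0.30, SE 0.088, limma adjusted p = 0.0399, and 0.29, 0.0185 without 35-day replicate 3). When 35-day replicate 3 was left out, 4 rose, against 15.9% of all genes, which were Zfand2a, Adrm1 (0.31, adjusted p = 0.00705), the deubiquitinase Usp14 (0.19, 0.0445) and Nfe2l1 (0.23, 0.0427). On the recovered reads of all 8 libraries, DESeq2 also called Nfe2l1 (adjusted p = 0.0299) and Ubqln2 (0.0440), with 4196 of all genes called. By edgeR neither was called (adjusted p = 0.122 and 0.102). The list's median was 0.026 with all libraries and 0.042 without 35-day replicate 3. Pomp was at 2519 ± 641 depth-normalized counts at 35 days and 2009 ± 113 at 125 days (SD, n = 4) (log2 change -0.29, limma adjusted p = 0.232, and -0.14, 0.286 without that library).

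Of 13 genes for loading peptides on class I molecules, 6 rose and none fell with all 8 libraries, against 8.85% of all genes higher, and the median log2 change was 0.40. The 4 with the lowest adjusted p were RT1-S3, RT1-A1, Tapbp and Erap1, and Tap1 was also among the 6. Tap1, which starts beside Psmb9, was at 545, 641, 816 and 703 depth-normalized counts in 35-day replicates 1 to 4 and at 876, 1018, 1039 and 1068 in 125-day replicates 1 to 4. Its ages did not overlap even with 35-day replicate 3, and the log2 change was 0.58 (SE 0.13, limma adjusted p = 0.0149), and 0.67 (adjusted p = 0.00152) without that library. Tapbp, which bridges the transporter and the class I molecule, rose 0.68 (adjusted p = 0.0101), and Erap1, which trims peptides after the proteasome has cut them, 0.40 (0.0115). The class I heavy chain genes RT1-S3 (0.81, limma adjusted p = 3.98e-04) and RT1-A1 (1.66, 0.00145) belong to a family of near-identical copies among which reads may be split, so their values are uncertain. With 35-day replicate 3 left out, 8 of the 13 rose, against 15.9% of all genes, with a median of 0.46. In that fit Tapbp had 0.80 (limma adjusted p = 5.40e-04), Erap1 0.37 (0.00423), RT1-S3 0.87 (4.82e-05) and RT1-A1 1.87 (1.47e-04). The GAAA repeat was in 5 of the 10 promoters of this list that were matched (B2m, RT1-S3, Tap1, Tap2 and Tapbp).

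Of 20 genes of the interferon gamma pathway, 3 rose and 1 fell with all libraries, against 8.85% and 8.87% of all genes. Ciita, the switch of class II genes, rose 0.85 (limma adjusted p = 0.0139), the GTPase gene Igtp 0.46 (0.0155) and Stat2 0.35 (0.0352), and the receptor gene Ifngr1 fell by 0.50 (0.00419). Irf1, an interferon-induced transcription factor, was at 1281 ± 243 depth-normalized counts at 35 days and 1485 ± 76.8 at 125 days (SD, n = 4) (log2 change 0.23, limma adjusted p = 0.252). In the fit without 35-day replicate 3, 5 rose and 1 fell, against 15.9% and 14.8% of all genes, and Irf1 was among those that rose (0.35, adjusted p = 0.00617). Ciita then had 0.84 (limma adjusted p = 0.0126), Igtp 0.50 (0.00415), Stat2 0.28 (0.0153) and Ifngr1 -0.48 (0.00160). Ifng itself failed the filter, with means of 0.517 and 1.99 depth-normalized counts.

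Markers of the cell types best known for immunoproteasomes did not all move one way. The counts below stand against 8.85% of all genes called higher and 8.87% called lower with all 8 libraries. The summed level of 14 microglia and macrophage genes ranged from 15587 to 17909 in the younger libraries and from 11629 to 17909 in the older ones, with 1 gene higher and 4 lower in limma. Of 12 lymphocyte genes 8 could be tested, with 2 higher and 3 lower, and the sums were 1024 to 1172 and 1226 to 1762. Most of that sum was Cd4, at 795 to 885 and 1096 to 1559.9 depth-normalized counts, and the mean log2(value + 1) over the list overlapped, at 4.02 to 4.73 and 3.85 to 4.57. Sums of 6 granulocyte and mast cell genes were 652 to 1089.5 and 79.2 to 241, and 5 of the 6 fell. Those of 10 endothelial genes were 23387 to 32826 and 14705 to 29050, and 6 fell. Leaving out 35-day replicate 3, the endothelial genes lower were 7 and the lymphocyte genes higher 3, and the other counts of these 4 lists did not move. In that fit 15.9% of all genes were called higher and 14.8% lower. The part of these cells in the levels of the inducible subunits was not tested.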

How the data were processed

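The values are a signal corrected for sequencing depth, and, as read from the values, they are the authors' read counts per gene over a size factor for each library. All of them (100%) came out as whole multiples of what 1 read is worth, within 0.001 reads. Tools in the submitters' processing notes were DESeq2 1.34.0, Subread 2.0.1 with featureCounts, SAMtools 1.13, HISAT2 2.2.1 and Trimmomatic 0.39, and the build was rn7. For annotation and strand, the settings were not found in the sources used here. 2 columns of the authors' means were not used.

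The members and lists were chosen with earlier results of these data known. limma 3.58.1 (R 4.3.3, intensity trend) was run on log2(value + 1) with age as the only term, two-sided, for 17919 genes at 10 or more in at least 4 of 8 libraries, with Benjamini-Hochberg adjustment over all of them. This scale understates changes of genes with low values. Checks on recovered reads used edgeR 4.0.16 (quasi-likelihood) and DESeq2 1.42.0. The other alternatives were pseudocounts, filters, scalings, library weights, the replicate block and leaving out each library. The fit with the anterior lobe covariate was chosen after seeing the data. The code was tested on simulated data. Every member is named with its change. Values by library are given for the inducible genes and their counterparts, for called members and for the uncalled member with the lowest adjusted p of each role. Of other lists, called genes (up to 4 with the lowest adjusted p where over 5 were called) and Pomp, Tap1 and Irf1 are named. A gene that this rule also names is not reported here. Figures were drawn with matplotlib 3.10.9.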

Additional observations from a re-analysis of the deposited data

Results flagged for a closer look

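In a group of 4 libraries, a library was singled out when its gap to the nearest other library as a share of the group's range exceeded Dixon's 95% critical value. Chance singles out about 1 in 20 groups, and of 102 groups checked 18 were.

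In 12 of the 18, 35-day replicate 3 was far above the other 35-day libraries. Its depth-normalized counts were 4185 in Psmb5, 1566 in Psmb10, 7924 in Psmb4, 6399.7 in Psma7, 5757 in Psmc1 and 5541 in Psmc2. They were 2294 in Psmd4, 3875 in Psmd7, 3612 in Psmd8, 4005 in Psmd12, 2007 in Psmg1 and 1141 in Psmg4. The same library was far below the others in Psme4, at 3455. Its log2 ratio of Psme2 to Psme3, 1.55, was far above the others.

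At 125 days, replicate 3 was far above the others in Psmb10 (966) and in the log2 ratio of Psme2 to Psme3 (0.99). Replicate 4 was far above in Psmb6 (1701), and replicate 2 far below in Psmc6 (2133).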

How the results depend on the processing

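The main limit is 35-day replicate 3. With 1 library left out in turn, the number of proteasome genes called ran from 0 to 8 (8 without 35-day replicate 3, and 1, Psma3, without 35-day replicate 4). Over all genes it ran from 1894 to 5495, against 3174 with all libraries (1894, 1948 and 1978 without 125-day replicates 4, 3 and 1). Library weights called 13 proteasome genes and 7892 genes in all, scaling by library totals called 1 (Psma3, lower), and the anterior lobe covariate called 1 (Psmb9). The cause of these differences was not tested. Scaling by library totals split all calls into 1161 higher and 1978 lower, where the deposited scaling gave 1585 and 1589. DESeq2 called 4196 genes in all and edgeR 3170. The pseudocounts of 0.5 and 5, both other filters, upper-quartile and TMM scaling, no intensity trend, edgeR and DESeq2 each called 0 proteasome genes.

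With the replicate number as a block, 0 proteasome genes and 2718 genes in all were called. The Psmb8 to Psmb5 (log2 difference 0.42) and Psmb9 to Psmb6 (0.95) ratios each had an exact sign-flip permutation p of 0.125, the smallest possible with 4 pairs. Deviations from the age means had correlations of -0.12 to 0.17 between same-numbered libraries and of -0.22 to 0.22 between differently numbered ones. So few values cannot show whether libraries of the same number were handled together.

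With 1 library left out in turn, the log2 difference of the ratios ran from 0.35 to 0.47 (Psmb8 to Psmb5), 0.78 to 1.08 (Psmb9 to Psmb6), 0.058 to 0.29 (Psmb10 to Psmb7), 0.074 to 0.35 (Psme1 to Psme3) and -0.059 to 0.31 (Psme2 to Psme3). All 5 passed an adjusted p of 0.05 only without 35-day replicate 3, where each permutation p was the smallest possible. Their log2 differences were then 0.39, 1.03, 0.29, 0.35 and 0.31. The last was below 0 without 35-day replicates 1 (-0.0024), 2 (-0.059) and 4 (-0.030).

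With library weights, 14 genes below 0 with all libraries turned above 0, Psmb1 at 0.083, Psmd8 at 0.068, Psmd13 at 0.039, Psmd11 at 0.033, Psmb3 at 0.13, Psmc5 at 0.11, Psmg1 at 0.13, Psmb5 at 0.069, Psmb10 at 0.27, Psmb4 at 0.21, Psmd4 at 0.054, Psmc2 at 0.037, Psmc1 at 0.026 and Psmd10 at 0.12. With 1 library left out in turn their log2 changes ran from -0.23 to 0.020 (Psmb1), -0.20 to 0.064 (Psmd8), -0.21 to 0.049 (Psmd13), -0.051 to 0.026 (Psmd11), -0.22 to 0.088 (Psmb3), -0.14 to 0.084 (Psmc5), -0.17 to 0.11 (Psmg1), -0.23 to 0.084 (Psmb5), -0.12 to 0.26 (Psmb10), -0.15 to 0.18 (Psmb4), -0.14 to 0.090 (Psmd4), -0.15 to 0.043 (Psmc2), -0.20 to 0.028 (Psmc1) and -0.15 to 0.080 (Psmd10), the highest each time without 35-day replicate 3. Psmb10 was also above 0 without 125-day replicates 1 (0.0032), 2 (0.0013) and 4 (0.00014) and with the anterior lobe covariate (0.48), Psmd11 without 125-day replicate 2 (0.0025), and Psme3 without 35-day replicate 1 (0.016, range -0.058 to 0.016). Psme2 was below 0 with scaling by library totals (-0.031), edgeR (-0.029) and DESeq2 (-0.031), and without 35-day replicates 2 (-0.069) and 4 (-0.068), with a range of -0.069 to 0.26. Psmg4 was below 0 under the same 3 settings (-0.014, -0.018 and -0.022) and without 35-day replicates 1 (-0.018), 2 (-0.014) and 4 (-0.059), with a range of -0.059 to 0.29.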

Other observations

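The genes that supply ubiquitin, the tag that proteasomes recognise, were also measured. Of 6 such genes, 4 polyubiquitin or ubiquitin-ribosomal fusion genes and 2 activating enzymes, none passed the limma test with all 8 libraries or without 35-day replicate 3. In each fit 1 of the 6 had an unadjusted limma p below 0.05, against 5666 and then 7544 of all 17919 genes. Ubb, a stress-responsive polyubiquitin gene, was at 31103 ± 4848 depth-normalized counts at 35 days and 31297 ± 1488 at 125 days (SD, n = 4). Uba1, the main activating enzyme, had the lowest adjusted p of the 6 (limma log2 change 0.19, adjusted p = 0.141, and 0.16, 0.0565 without 35-day replicate 3). On the recovered reads of all 8 libraries, Uba1 had an adjusted p of 0.0264 in DESeq2 and 0.162 in edgeR. These genes were named after their values were seen.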
